A study of Rattus norvegicus with 8 samples.

Results

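Klf9, Fkbp5, Tsc22d3, Ddit4, Sgk1, Zbtb16 and Errfi1 are genes whose transcription rises in many tissues when glucocorticoid hormone is given, and they were chosen here by name as a readout of that hormone in the irradiated rat thyroid. Earlier results of these data were known at that choice, so their counts set beside all genes are a description only. The table held 6 of these 7 names among 30560 genes, and Tsc22d3 was not analysed here. The identifiers were ENSRNOG00000014215 for Klf9, ENSRNOG00000057078 for Ddit4, ENSRNOG00000011815 for Sgk1, ENSRNOG00000058186 for Errfi1, ENSRNOG00000022523 for Fkbp5 and ENSRNOG00000029980 for Zbtb16. The thyroids came from male Wistar rats whose neck was exposed to X-rays at 4 Gy or was sham-irradiated (0 Gy), either at 1 week or at 4 months of age, and were taken about 8 weeks later. The 4 groups were therefore 1w0Gy, 1w4Gy, 4m0Gy and 4m4Gy, with 2 rats each, and the labels name no genetic modification. From each group the study sequenced the RNAs with the best integrity, so the libraries were not a random draw of its rats. Because every thyroid was taken after the same interval, age at exposure and age at sampling cannot be told apart.

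Glucocorticoids, corticosterone in the rat, enter cells and bind the glucocorticoid receptor, which chaperones hold in the cytoplasm until the hormone arrives. The receptor then moves to the nucleus, binds short palindromic DNA elements and raises or lowers the transcription of its targets. Enzymes inside the cell can renew or inactivate the hormone before it meets the receptor, and corticosterone in blood follows a daily rhythm. Most of the 6 genes also answer to other signals, Ddit4 to hypoxia and DNA damage and Klf9 to thyroid hormone among them.

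The region just before the transcription start is shown for Klf9 and Ddit4, the members with the smallest p-values after irradiation at 1 week and at 4 months. The sequences are those of RefSeq for build GRCr8, 250 bases before the start, written 5′ to 3′ on the strand of the gene. They cover chr1:230126396-230126645 on the plus strand for Klf9 and chr20:28437038-28437287 on the minus strand for Ddit4. Capitals mark a match to any of the motifs named in the next paragraph.
Klf9: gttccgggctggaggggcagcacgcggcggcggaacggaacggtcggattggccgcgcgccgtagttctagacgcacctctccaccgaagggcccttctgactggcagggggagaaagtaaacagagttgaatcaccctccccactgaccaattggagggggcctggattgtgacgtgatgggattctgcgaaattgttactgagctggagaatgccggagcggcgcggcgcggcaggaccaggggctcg
Ddit4: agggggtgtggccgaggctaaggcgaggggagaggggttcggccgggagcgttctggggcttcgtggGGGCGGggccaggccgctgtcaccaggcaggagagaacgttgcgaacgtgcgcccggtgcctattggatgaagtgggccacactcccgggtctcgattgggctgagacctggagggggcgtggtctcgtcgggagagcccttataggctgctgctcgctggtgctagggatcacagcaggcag

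RefSeq windows were matched for 5 of the 6 genes, and Sgk1 had 3 of them, 1 for each of its listed starts. The receptor's palindrome, searched on both strands as GNACA and TGTNC with 3 free bases between them, was in none of the 7 windows and in 0.373% of all 33469 rat promoter windows. Its half-site TGTTCT, which can overlap the palindrome by 5 bases, was also in none of the 7 and in 17.5% of all windows. The E-box CACGTG and the cyclic AMP response element TGACGTCA had no match in these windows either, against 5.59% and 1.59% of all. The GC box GGGCGG was in 5 of the 7 windows, for 4 of the 5 genes, against 30.5% of all windows. It lay at bases -183 to -178 from the start in Ddit4, whereas Klf9 had none. The TATA box TATAAA was in 3 of the 7 windows, for Sgk1 and Errfi1, against 12.9% of all windows. In Errfi1 it lay at bases -35 to -30. G and C made up 63.6% of the Klf9 window and 67.6% of the Ddit4 window, with 23 and 19 CpG pairs, against medians of 51.2% and 5 over all windows. These matches describe letters in short windows only and say nothing of elements elsewhere.

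Libraries held 14835406 to 18138106 counts on genes. Thyroglobulin, the precursor of thyroid hormone that defines the thyrocyte, took 18.5 to 21.3% of them. Summed markers of lymphocytes were low, at 1.54 to 3.77 CPM (counts scaled to the size of the library), whereas those of the parathyroid lay at 1943 to 5462 CPM in 7 libraries and at 343 CPM in 4m4Gy replicate 2. Replicates differed by more than counting noise in each group, with a chi-square of 7.97 to 16.2 per degree of freedom. In whole tissue, fewer cells of a type and less RNA per cell cannot be told apart.

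Levels were compared between genes per length of transcript. Klf9, a zinc finger repressor of proliferation, was the highest at 49.2 TPM (read counts per length and depth, mean of 8 libraries, 39.2 to 57.8). Ddit4, an inhibitor of mTORC1 signalling, followed at 20.1 TPM (16.1 to 25.5) and Sgk1, a kinase that promotes sodium transport, at 15.2 TPM (11.7 to 20.4). The ranges of these 2 neighbours overlapped. Errfi1, a feedback inhibitor of the EGF receptor, stood at 7.18 TPM (6.36 to 8.25), clear of both neighbours. Fkbp5, a co-chaperone that lowers hormone binding by the receptor, stood at 2.47 TPM (1.91 to 2.72) and Zbtb16, a transcription factor of stem and mesenchymal cells, at 1.26 TPM (0.739 to 2.63), again with overlapping ranges.

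**Figure D1:**
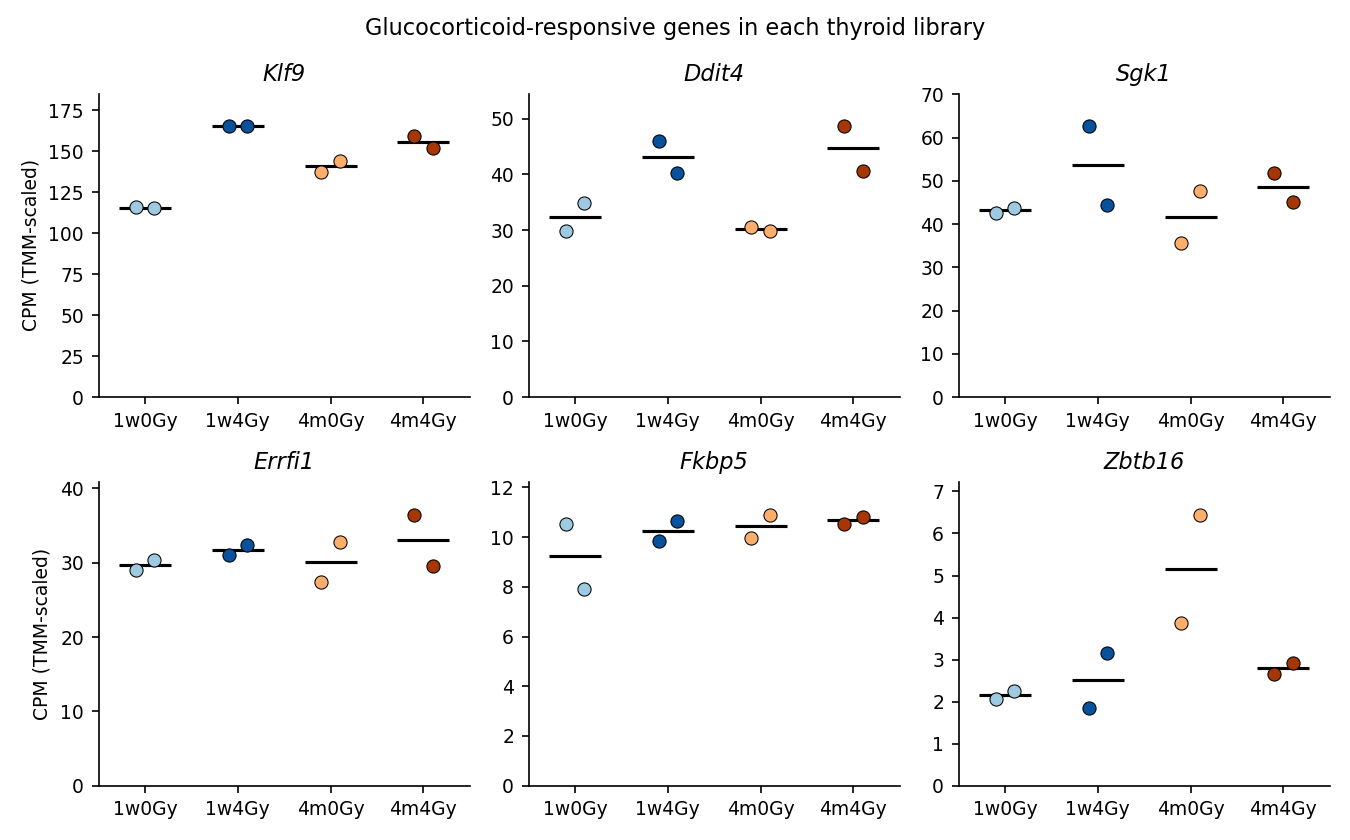
Level of each of the 6 genes in each library, in CPM scaled by TMM (vertical axis from 0), by group (horizontal axis). Points are libraries, 2 per group, and bars are group means. Klf9 lies at 115 and 116 CPM in 1w0Gy and at 165 CPM in both 1w4Gy libraries, and Ddit4 is higher in all 4 irradiated libraries than in all 4 sham libraries.

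Irradiation at 1 week was examined first, to ask whether the neonatal exposure had left a glucocorticoid-type profile in the thyroid. Klf9 showed the clearest difference. It was at 116 and 115 CPM in the 1w0Gy thyroids and at 165 and 165 CPM in the 1w4Gy thyroids. The replicates of each group nearly coincided, and the groups did not overlap. The log2 fold change was 0.52 ± 0.08 (SE, n = 2 per group), with an adjusted p of 0.395 by the edgeR quasi-likelihood test, and Klf9 ranked 8 of 15359 genes by p. A call required an adjusted p under 0.05 together with a fold above 1.5 or under 0.5, and the fold here was 1.43. Its adjusted p rested on which library was kept, at 0.0399 without 1w4Gy replicate 1, 0.0359 without 1w4Gy replicate 2, 1.00 without 1w0Gy replicate 1 and 0.751 without 1w0Gy replicate 2. The log2 fold change stayed at 0.52 in these 4 fits, under the fold limit.

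Ddit4 was at 29.8 and 34.9 CPM in 1w0Gy and at 46.0 and 40.2 CPM in 1w4Gy. Both irradiated thyroids were higher, by 0.42 ± 0.12 on the log2 scale (adjusted p = 0.850, edgeR). Sgk1 was at 42.6 and 43.7 CPM in 1w0Gy and at 62.7 and 44.5 CPM in 1w4Gy. Its difference of 0.31 ± 0.16 (adjusted p = 0.884, edgeR) came largely from 1w4Gy replicate 1. Without 1w4Gy replicate 2 the log2 fold change was 0.54 with an adjusted p of 0.0412, and without 1w4Gy replicate 1 it was 0.04 with an adjusted p of 0.907. Without either 1w0Gy replicate it was 0.29 or 0.34, each with an adjusted p of 1.00.

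Errfi1 lay at 29.0 and 30.4 CPM in 1w0Gy and at 31.1 and 32.4 CPM in 1w4Gy, a small gap of 0.10 ± 0.10 on the log2 scale (adjusted p = 0.924, edgeR). Fkbp5 lay at 10.5 and 7.90 CPM in 1w0Gy and at 9.84 and 10.6 CPM in 1w4Gy. Its groups overlapped, with 0.15 ± 0.18 (adjusted p = 0.935, edgeR), from 195, 137, 159 and 172 counts. Zbtb16 had few reads, at 2.05 and 2.25 CPM in 1w0Gy and at 1.86 and 3.16 CPM in 1w4Gy, from 38, 39, 30 and 51 counts. These groups also overlapped (0.22 ± 0.33, adjusted p = 0.954, edgeR).

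At 1 week, 0 of the 6 genes were called by edgeR, and 2 had an unadjusted p under 0.05. Of all 15359 genes tested, 1 was called (0.00651%), and 872 had an unadjusted p under 0.05. With DESeq2, 0 of the 6 and 12 of all genes were called, although Klf9 had an adjusted p of 0.0141 there and missed the call by the fold limit alone. Both 1w4Gy libraries lay above both 1w0Gy libraries for 4 of the 6 genes, against 17.6% of all genes, and below them for 0 of the 6, against 18.0% of all genes. The median log2 fold change of the 6 was 0.27 and that of all genes was near 0, with 50.0% of all genes on the higher side.

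**Figure D2:**
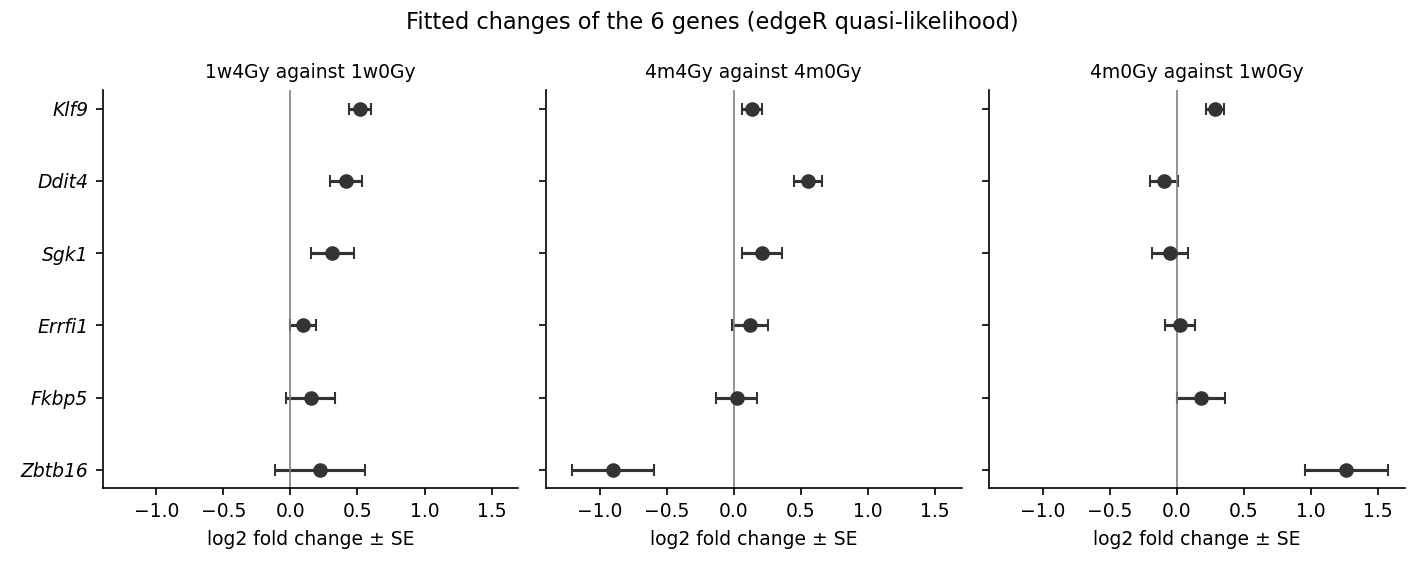
Fitted log2 fold change with its SE (horizontal axis) of the 6 genes (vertical axis) for irradiation at each age and for age in sham rats, with 2 libraries per group and 0 marked by a line. Klf9 stands at 0.52 at 1 week and 0.14 at 4 months, Ddit4 at 0.42 and 0.55, and Zbtb16 has the widest errors.

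Markers of other cell types moved in the same pair of groups. The 5 endothelial markers summed to 668 and 646 CPM in 1w0Gy and to 795 and 768 CPM in 1w4Gy. All 5 were higher by 0.18 to 0.28 on the fitted log2 scale, and none was at 0 in any library. Of these, Emcn overlapped between the groups, at 107 and 98.8 CPM in 1w0Gy and at 135 and 98.2 CPM in 1w4Gy. The 7 adipocyte markers summed to 564 and 443 CPM in 1w0Gy and to 298 and 315 CPM in 1w4Gy, and the 3 parathyroid markers to 4832 and 3293 CPM and to 2886 and 1943 CPM. The 6 matched skeletal muscle markers summed to 13.1 and 94.1 CPM in 1w0Gy and to 51.5 and 6.74 CPM in 1w4Gy, with replicates far apart. The 5 fibroblast markers summed to 2104 and 1745 CPM and to 1808 and 1552 CPM, which overlapped. None of these markers was called. At an unadjusted p under 0.05 by edgeR, 4 of the 5 endothelial markers were higher and 6 of the 7 adipocyte markers lower. Among the parathyroid, muscle and fibroblast markers, 1 of 3, 0 of 6 and 1 of 5 were lower at such a p, and none was higher. Of all genes 872 of 15359 had such a p. Plin1, an adipocyte marker named after its values were seen, ranked 2 of 15359 genes by p, ahead of Klf9. The part of these markers in the Klf9 difference was not tested.

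**Figure D3:**
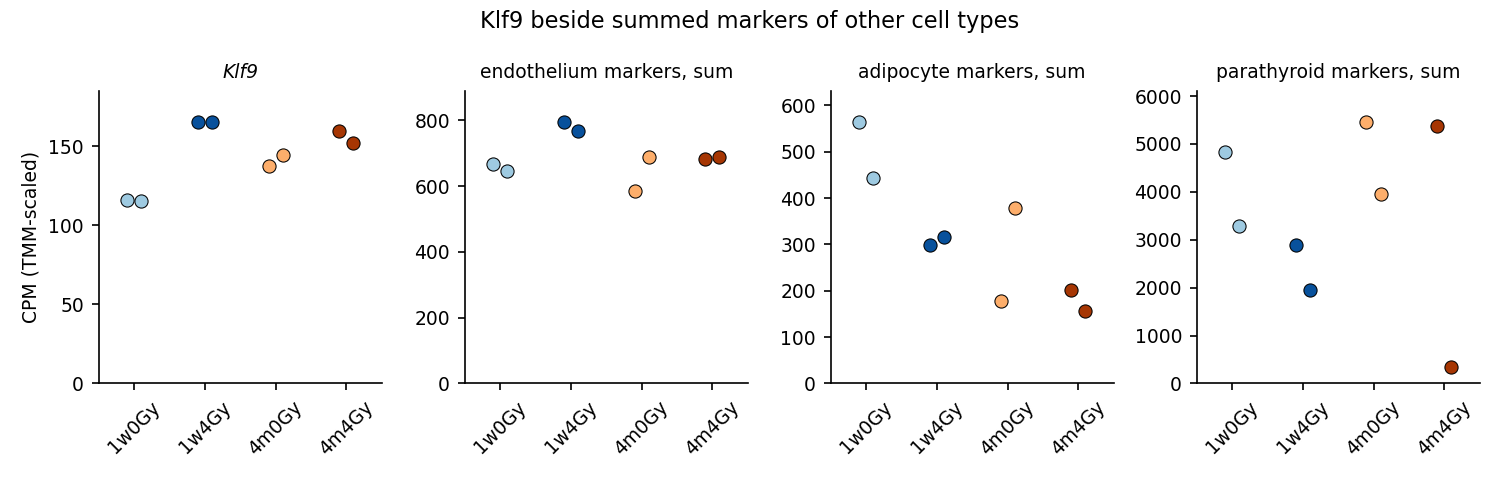
Klf9 and the summed markers of endothelium, adipocytes and parathyroid (vertical axes, TMM-scaled CPM from 0) in the 8 libraries by group, 1 point per library. Klf9 and the endothelial sum are higher in both 1w4Gy libraries than in both 1w0Gy libraries, and the adipocyte and parathyroid sums are lower.

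Irradiation at 4 months addressed the same question in the adult gland. Here Ddit4 led. It was at 30.6 and 29.9 CPM in 4m0Gy and at 48.7 and 40.6 CPM in 4m4Gy, so both irradiated thyroids were higher. The log2 fold change was 0.55 ± 0.10 (adjusted p = 0.247, edgeR), the fold was 1.47 and Ddit4 ranked 25 of 15253 genes by p. Klf9 was at 138 and 144 CPM in 4m0Gy and at 159 and 152 CPM in 4m4Gy. The groups did not overlap, but the gap was small, at 0.14 ± 0.07 (adjusted p = 0.665, edgeR).

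Zbtb16 went the other way at 4 months. It was at 3.86 and 6.45 CPM in 4m0Gy, from 60 and 110 counts, and at 2.66 and 2.92 CPM in 4m4Gy, from 40 and 45 counts. The log2 fold change was -0.90 ± 0.30 (adjusted p = 0.479, edgeR), and the sham replicates differed from each other by 0.74 on the same scale. With each single replicate left out in turn it ranged from -1.22 to -0.49.

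Sgk1 lay at 35.7 and 47.6 CPM in 4m0Gy and at 51.8 and 45.2 CPM in 4m4Gy, with 0.21 ± 0.15 on the log2 scale (adjusted p = 0.782, edgeR). Errfi1 lay at 27.4 and 32.8 CPM and at 36.5 and 29.6 CPM, with 0.12 ± 0.13 (adjusted p = 0.858, edgeR). Fkbp5 lay at 9.98 and 10.9 CPM and at 10.5 and 10.8 CPM, with 0.02 ± 0.16 (adjusted p = 0.982, edgeR). The groups overlapped for these 3 genes.

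At 4 months, 0 of the 6 genes were called by edgeR, with 2 at an unadjusted p under 0.05, and DESeq2 also called 0. Over all genes, the alternatives that kept all libraries, DESeq2 among them, called from 0 to 14. Ddit4 had an adjusted p of 0.142 by DESeq2 and of 0.0114 by edgeR without a filter on low counts, where the fold limit alone kept it from a call, and from 0.0506 to 0.568 with 1 library left out. Of 15253 genes tested, edgeR called 3 (0.0197%) and 1280 had an unadjusted p under 0.05. The irradiated libraries lay above the sham libraries for 2 of the 6, against 22% of all genes, and below for 1 of the 6, against 18.0% of all genes. The median log2 fold change of the 6 was 0.13, beside 0.01 over all genes. The parathyroid sum was 5462 and 3955 CPM in 4m0Gy and 5386 and 343 CPM in 4m4Gy. The adipocyte sum was 178 and 379 CPM in 4m0Gy and 202 and 157 CPM in 4m4Gy. The part of these sums in the differences at 4 months was not tested.

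Whether irradiation acted differently at the 2 ages was tested as an interaction, the log2 fold change at 1 week minus that at 4 months. Klf9 gave 0.38 ± 0.10 (adjusted p = 0.407, edgeR) and ranked 112 of 15684 genes by p. Zbtb16 gave 1.11 ± 0.47 (adjusted p = 0.525, edgeR). The other 4 lay between -0.14 and 0.13. For 0 of the 6 genes did irradiated libraries lie on opposite sides of sham libraries at the 2 ages without overlap, against 9.55% of all genes. Of the 6 genes 0 were called and 2 had an unadjusted p under 0.05. Of all genes edgeR called 0 (0%), with 1431 at an unadjusted p under 0.05 and 26 called by DESeq2. The larger Klf9 difference after neonatal exposure was therefore not separated from that after adult exposure.

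Fitted over both ages, with age as a term, irradiation was accompanied by 0.49 ± 0.08 more Ddit4 on the log2 scale (n = 4 per dose, adjusted p = 0.448, edgeR). Ddit4 ranked 4 of 15684 genes by p. All 4 irradiated libraries, at 40.2 to 48.7 CPM, lay above all 4 sham libraries, at 29.8 to 34.9 CPM. Under DESeq2 the same gene had an adjusted p of 0.00781. Klf9 differed by 0.33 ± 0.08 (adjusted p = 0.761, edgeR), with irradiated libraries at 152 to 165 CPM and sham libraries at 115 to 144 CPM. Non-overlap of this kind was found for 2 of the 6 genes upward, against 1.04% of all genes, and for 0 downward, against 0.504%. The members were chosen with earlier results of these data known, so these shares describe them and are no test. By adjusted p, 0 of the 6 were called by edgeR, with 2 at an unadjusted p under 0.05. Of all 15684 genes 2 were called (0.0128%), and 610 had an unadjusted p under 0.05.

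The comparison of ages asked where the same genes stood in the young and the older gland. In sham rats Klf9 stood at 116 and 115 CPM at the younger age and at 138 and 144 CPM at the older, a log2 difference of 0.29 ± 0.07 (adjusted p = 0.0929, edgeR). Zbtb16 differed more in size, with 2.05 and 2.25 CPM in 1w0Gy and 3.86 and 6.45 CPM in 4m0Gy, or 1.26 ± 0.31 (adjusted p = 0.109, edgeR). Without 4m0Gy replicate 1 the difference was 1.58 with an adjusted p of 0.0244, and without 4m0Gy replicate 2 it was 0.84 with an adjusted p of 0.186. Without either 1w0Gy replicate the adjusted p was 0.365 or 0.346, and without a filter on low counts it was 0.0356. The other 4 genes overlapped between the ages, from -0.10 to 0.18 on the log2 scale. Both 4m0Gy libraries were above for 2 of the 6 genes, against 25.1% of all genes, and below for 0, against the same 25.1%.

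In irradiated rats the age differences of all 6 genes lay between -0.15 and 0.15. Klf9 was at 165 and 165 CPM in 1w4Gy and at 159 and 152 CPM in 4m4Gy, which is below without overlap (-0.09 ± 0.08, adjusted p = 0.666, edgeR). That was 1 of the 6 genes, against 22.8% of all genes, and 0 of the 6 lay above, against 25%. Over both treatments Zbtb16 had the largest age difference of the 6, at 0.73 ± 0.28 (adjusted p = 0.169, edgeR), and leaving out 1 library in turn moved it from 0.45 without 4m0Gy replicate 2 (adjusted p = 0.369) to 1.02 without 1w4Gy replicate 2 (adjusted p = 0.0473), with adjusted p up to 0.390. For age, edgeR called 0 of the 6 genes in each fit, with 2 at an unadjusted p under 0.05 in sham rats, 0 in irradiated rats and 1 over both. In the background 163 of 15364 genes were called in sham rats (1.06%), 136 of 15275 in irradiated rats (0.890%) and 669 of 15684 over both treatments (4.27%). An unadjusted p under 0.05 was found for 2734, 2266 and 3208 genes in the same order.

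The receptor itself was well expressed. Nr3c1, the glucocorticoid receptor, was at 89.2 and 85.1 CPM in 1w0Gy, 85.0 and 82.7 CPM in 1w4Gy, 76.7 and 82.8 CPM in 4m0Gy and 76.8 and 75.4 CPM in 4m4Gy. Its irradiation differences were -0.06 ± 0.08 at 1 week (adjusted p = 0.950, edgeR) and -0.08 ± 0.08 at 4 months (adjusted p = 0.845, edgeR). Nr3c2, the mineralocorticoid receptor, which binds the same hormone, lay between 46.9 and 57.4 CPM.

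Among the enzymes that handle the hormone, Hsd11b1, which regenerates active corticosterone, lay between 14.7 and 24.7 CPM. H6pd, which supplies its cofactor, lay between 23.6 and 30.6 CPM. Hsd11b2, which inactivates the hormone, was low, at 0.990 to 2.13 CPM. Of these 5 genes, 0 were called for irradiation at either age or for age, and 0 had an unadjusted p under 0.05 for irradiation at either age. Their median log2 fold changes were -0.06 at 1 week and -0.01 at 4 months.

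Of the 15 chaperones and coregulators of the receptor, 0 were called after irradiation at either age. At 1 week 1 was higher at an unadjusted p under 0.05, Hsp90aa1, the inducible HSP90 that keeps the receptor ready to bind (0.39 ± 0.16, adjusted p = 0.875, edgeR). At 4 months 4 were lower at an unadjusted p under 0.05, among them the coactivators Ncoa2, Ncoa3 and Med1, named after their values were seen. Ncoa2 went from 27.4 and 26.3 CPM to 20.2 and 20.3 CPM (-0.42 ± 0.10, adjusted p = 0.353, edgeR). Over all genes, 872 of 15359 had an unadjusted p under 0.05 at 1 week and 1280 of 15253 at 4 months. Of the 15 only Stip1, which links HSP70 to HSP90, passed the test in any of the 7 comparisons run, falling with age over both treatments by 0.31 on the log2 scale (SE 0.07, adjusted p = 0.0260, edgeR). In that comparison 4.27% of all genes were called.

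Of 35 further glucocorticoid targets, 33 were matched and Dusp1 and Rhob were not analysed here. Under irradiation 0 were called at either age. At an unadjusted p under 0.05, 5 of 30 were higher and 5 lower at 1 week, and 5 of 29 were higher and 2 lower at 4 months. Over all genes, in either direction, 872 of 15359 had such a p at 1 week and 1280 of 15253 at 4 months. The median log2 fold change was 0.03 at both ages.

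Per1, a clock gene with a known receptor element, was at 36.0 and 49.4 CPM in 1w0Gy and at 62.4 and 91.3 CPM in 1w4Gy (0.85 ± 0.24, adjusted p = 0.875, edgeR). Cebpd, a transcription factor of adipose and inflammatory programmes, was at 7.13 and 11.1 CPM and at 16.5 and 16.1 CPM (0.84 ± 0.21, adjusted p = 0.811, edgeR). Both sat higher in each 1w4Gy library, with replicates of Per1 far apart. At 4 months the same genes differed by 0.13 ± 0.11 (adjusted p = 0.808, edgeR) and 0.39 ± 0.17 (adjusted p = 0.585, edgeR).

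Other targets were lower at 1 week. Mt2A, a metallothionein, stood at -0.43 ± 0.13 (adjusted p = 0.850, edgeR), and Angptl4, an inhibitor of lipoprotein lipase, at -0.54 ± 0.17 (adjusted p = 0.873, edgeR). Pck1, the gluconeogenic and adipose enzyme, was chosen after its values were seen. It was at 30.6 and 29.8 CPM in 1w0Gy and at 17.1 and 14.9 CPM in 1w4Gy (-0.91 ± 0.12, adjusted p = 0.283, edgeR). By p it ranked 3 of 15359 genes, in the lower direction. The adipocyte sum was lower in the same libraries, and its part in the Pck1 difference was not tested. Klf15 stood at 0.38 ± 0.16 (adjusted p = 0.875, edgeR), and the groups overlapped for Nfkbia, Pdk4 and Lcn2.

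With age, 2 of the 30 targets passed the test over both treatments, both downward, beside 4.27% of all genes. Anxa1, a mediator of anti-inflammatory hormone action, fell by 0.47 on the log2 scale (SE 0.11, adjusted p = 0.0409, edgeR), and Sult1a1, a sulfotransferase of phenols and thyroid hormone, fell by 0.52 (SE 0.11, adjusted p = 0.0295, edgeR). Sult1a1 also fell in sham rats alone (adjusted p = 0.0419, edgeR). Fibroblast markers summed to 1552 to 2104 CPM in the younger libraries and to 687 to 918 CPM in the older ones, and their part in these falls was not tested.

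**Figure D4:**
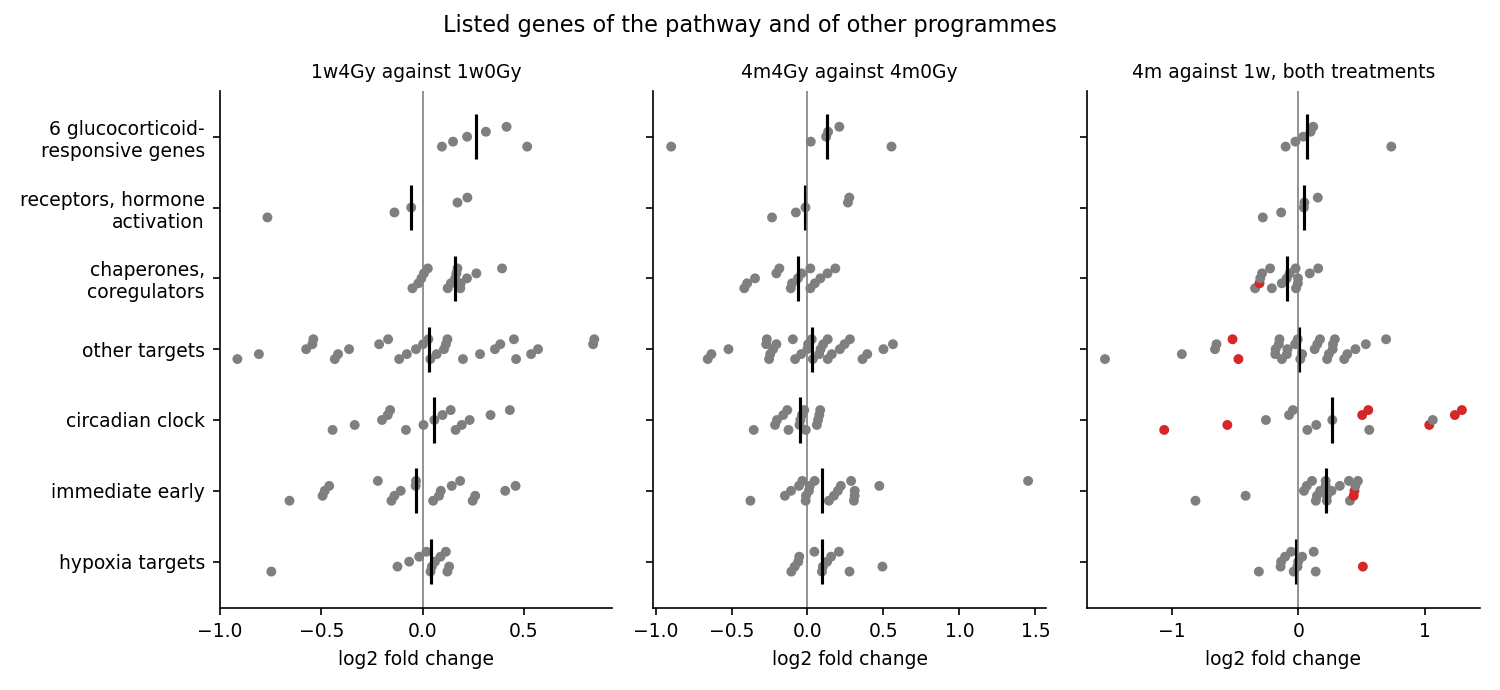
Log2 fold change (horizontal axis) of each tested gene in 7 groups of genes (vertical axis) for irradiation at each age and for age over both treatments. Points are genes, black lines are medians of a group and red points passed the test. No point is red in either irradiation panel. In the age panel 7 of the 15 clock genes are red, against 4.27% of all genes.

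Other programmes that share targets with the receptor were read in the same way. Of 15 clock genes 0 were called after irradiation at either age. With age over both treatments 7 of the 15 were called, 5 higher and 2 lower, against 4.27% of all genes. Dbp, an output factor of the clock, rose by 1.29 ± 0.07 on the log2 scale (adjusted p = 1.9e-05, edgeR), from 28.2 to 32.7 CPM over the 4 younger libraries to 70.4 to 80.5 CPM over the 4 older ones. Nr1d1, the repressor REV-ERBα, rose by 1.24 ± 0.11 (adjusted p = 4.5e-04, edgeR), and Arntl, which encodes BMAL1, fell by 0.56 (SE 0.08, adjusted p = 0.00424, edgeR). Times of day at which thyroids were taken are not given in the sources used here.

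Immediate early genes gave 0 calls of 19 at 1 week and of 20 at 4 months, with Fos at -0.48 ± 0.23 (adjusted p = 0.875, edgeR) and 0.47 ± 0.28 (adjusted p = 0.696, edgeR). With age over both treatments Junb and Jund rose, by 0.44 each, and Egr1 rose with age in irradiated rats, by 0.77 ± 0.11 (adjusted p = 0.0276, edgeR). Hypoxia targets, read because Ddit4 also belongs to that response, gave 0 calls of 12 after irradiation at either age, with medians of 0.04 and 0.10 on the log2 scale. Ndrg1 rose with age, by 0.51 ± 0.07 (adjusted p = 0.00295, edgeR). Calls with age over both treatments were thus 2 of 20 immediate early genes and 1 of 12 hypoxia targets, against 4.27% of all genes. In irradiated rats Egr1 was 1 of 20, against 0.890% of all genes.

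Across the 8 libraries the 6 genes did not share 1 profile. Pearson's r of log2 CPM between pairs ran from -0.45 for Ddit4 with Zbtb16 to 0.71 for Klf9 with Ddit4, as a description over libraries that share groups and depth. Among 13850 genes, those most like Klf9 were Fosl2 (r = 0.97), Stard8 (0.97) and Cenpe (0.95). Those most like Ddit4 were Bcdin3d (0.95), Actn4 (0.94) and Ccng1 (0.94), and those most like Sgk1 were Pwwp2a (0.99), Arhgef15 (0.96) and Upp1 (0.95). For Zbtb16 they were Greb1l (0.98), Esrrb (0.98) and rno-mir-335 (0.97), for Fkbp5 Tldc2 (0.96), Tacc2 (0.94) and Rad51b (0.94), and for Errfi1 Frg1l1 (0.97), Emc9 (0.96) and AC128207.2 (0.96).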

How the data were processed

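RNA of 8 rat thyroids was sequenced as paired reads, and per the labels and the study's methods the authors aligned them with HISAT2 2.2.1 and counted them with featureCounts 2.0.0. The genome build is not given in the sources used here. The authors deposited raw counts, TPM and RPKM for 54991 transcripts of 30560 genes, and the 8 RPKM columns were not used. The deposited TPM values served only to compare levels between genes, with the transcript lengths the authors deposited beside them. Each gene was taken as its transcript with the highest summed count, since transcripts of 1 gene held nearly the same counts and were not independent (4 for Sgk1, 2 each for Fkbp5 and Errfi1). Of all genes 7162 had no name in the table.

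Counts were filtered by expression, scaled by TMM (factors 0.972 to 1.02) and tested with edgeR 4.0.16 in R 4.3.3, by the quasi-likelihood test with robust dispersion and Benjamini-Hochberg adjustment over all tested genes. Only the groups compared entered each fit, and all 4 entered the interaction and the fits over both ages or treatments. Calls for irradiation at 1 week and at 4 months also needed a fold above 1.5 or under 0.5. These are the limits of the study, whose own test was that of DESeq2. All other calls, those for irradiation over both ages included, needed only an adjusted p under 0.05. DESeq2 1.42.0 was an alternative, beside other filters, scalings, transcript choices, a replicate block and each replicate left out. The scripts were tested on simulated data. The members and lists were chosen with earlier results of these data known. The named genes were all members, the 5 receptor and hormone enzyme genes and fixed members of the other lists. Also named were every gene of the pathway lists called in a comparison and the 3 unlisted genes most like each member by r. Replicates were separate rats of a group, with no litter or batch named. Likeness used log2 CPM with a prior count of 2. 1 result is not reported here.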

Additional observations from a re-analysis of the deposited data

Results flagged for a closer look

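Of 101 genes of the glucocorticoid and related lists, 13 had 1w4Gy libraries entirely on one side of 1w0Gy and 4m4Gy libraries entirely on the other side of 4m0Gy, which is what placed them here. Over all 15040 genes tested at both ages, 1437 did so (9.55%). The difference itself was tested as an interaction in edgeR, the log2 fold change at 1 week minus that at 4 months, and none passed the adjustment over all genes. None of the 6 glucocorticoid-responsive genes was among them.

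Foxo3, a transcription factor of stress and atrophy responses, stood higher after irradiation at 1 week and lower after irradiation at 4 months. It was at 35.0 and 37.0 CPM in 1w0Gy, 56.3 and 48.1 CPM in 1w4Gy, 48.2 and 46.3 CPM in 4m0Gy and 29.9 and 36.4 CPM in 4m4Gy. Its interaction was 1.05 ± 0.16 (adjusted p = 0.214, edgeR). Its relative Foxo1 gave 0.55 ± 0.16 (adjusted p = 0.422, edgeR) and Irs2, an insulin receptor substrate, 1.23 ± 0.38 (adjusted p = 0.465, edgeR). Higher at 1 week and lower at 4 months were also H6pd with 0.45, Nrip1 with 0.42, Myc with 0.78 and Kdm3a with 0.22, at adjusted p from 0.425 to 0.630.

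Lower at 1 week and higher at 4 months were the metallothionein Mt1 with -1.14, the cell cycle inhibitor Cdkn1c with -0.67, the repressor Bcl6 with -0.78 and the immediate early genes Egr1 with -0.72, Nr4a3 with -0.66 and Klf2 with -0.53, at adjusted p from 0.400 to 0.751 by edgeR.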

How the results depend on the processing

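Under the alternatives that kept all libraries, 0 of the 42 member log2 fold changes changed direction. Members called went from 0 to 1 with DESeq2 over both ages (Ddit4), and from 0 to 1 without a filter on low counts for age in sham rats (Zbtb16). Neither of these comparisons had a fold limit, unlike irradiation at 1 week and at 4 months. Leaving out single libraries gave 0 to 1 members called for age over both treatments and for age in sham rats. Replicate numbers were not taken to pair rats, since the labels name no shared litter or day and same-numbered deviations correlated at 0.12, 0.12, -0.23 and 0.04. With the replicate block, Klf9 at 1 week had an adjusted p of 0.0486 and Ddit4 at 4 months of 0.0304, both below the fold limit, and the calls for age over all genes became 13 in sham and 730 in irradiated rats. Crossed pairing, chosen after seeing the data, gave 340 in sham rats. Over these alternatives the genes called ranged from 0 to 12 at 1 week (DESeq2 highest), 0 to 14 at 4 months, 0 to 26 for the interaction, 1 to 11 over both ages, 572 to 1047 for age, 13 to 507 for age in sham rats and 44 to 730 in irradiated rats. Leaving out 1 library moved them from 2 to 45 at 1 week (45 without 1w4Gy replicate 2, 38 without replicate 1), 3 to 52 at 4 months (52 without 4m0Gy replicate 2, 50 without replicate 1), 0 to 22 for the interaction (22 without 1w4Gy replicate 1), 1 to 5 over both ages, 292 (without 1w0Gy replicate 2) to 667 for age, 12 (without 1w0Gy replicate 1) to 746 (without 4m0Gy replicate 2) in sham rats and 28 (without 4m4Gy replicate 2) to 1285 (without 1w4Gy replicate 1) in irradiated rats. A fit without robust dispersion, also chosen after seeing the data, gave 0 calls at 1 week and at 4 months and 1 over both ages.

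Leaving out single replicates turned the sign of small differences, whose log2 ranges follow. For Fkbp5 they were -0.036 to 0.37 at 1 week, -0.040 to 0.079 at 4 months, -0.057 to 0.34 for the interaction, -0.0022 to 0.16 over both ages and -0.010 to 0.40 for age in sham rats. For Sgk1 they were -0.17 to 0.32 for the interaction, -0.19 to 0.018 for age, -0.27 to 0.14 in sham and -0.37 to 0.12 in irradiated rats. For Errfi1 they were -0.034 to 0.25 at 4 months, -0.17 to 0.13 for the interaction, -0.024 to 0.096 for age, -0.11 to 0.14 in sham and -0.10 to 0.19 in irradiated rats. For Ddit4 they were -0.091 to 0.041 for age, -0.21 to 0.024 in sham and -0.087 to 0.17 in irradiated rats. For Zbtb16 they were -0.21 to 0.55 at 1 week and -0.18 to 0.58 for age in irradiated rats. A group with 1 library left was assumed to vary like the others. Klf9 kept its direction in every fit, with 0.52 at 1 week when any single library was left out. Zbtb16 had the fewest counts of the 6, at 30 to 110 per library.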
